A study of Mus musculus with 2 samples.

Results

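The enzymes described here build fatty acids from citrate, lengthen them and insert double bonds. They are encoded by 10 genes, Acly, Acaca, Fasn, Scd1, Scd2, Fads1, Fads2, Elovl1, Elovl5 and Elovl6, out of 18193 genes measured in the series. The genes were chosen by name, with earlier results of these arrays known, and their values are all the probe sets (groups of probes for the same transcript) whose platform annotation names just that gene. This gave 28 of the 45101 probe sets, and no probe set shared between a member and another gene was used. All differences below are therefore a description of these arrays.

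The series holds 2 Affymetrix 3′ expression arrays of mouse B cells, 1 titled mir155KO and 1 titled mir155WT, and asks which transcripts differ when the microRNA miR-155 is absent. The labels describe cultured, activated B cells from male mice on a C57 background (Jackson Laboratory), yet the growth protocol of both samples describes haematopoietic progenitors kept for 6 days with G-CSF and stem cell factor. Both cultures received cycloheximide, a translation inhibitor, at 100 ug/ml for 8 min before harvest. With 1 array per genotype there is no replicate, no spread between animals could be estimated and no test was made, so every value stands for a single measurement.

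The genotype of the arrays is not settled. The titles and genotype entries name 1 array knockout and the other wild type, and the source names say the reverse for both. Mir155hg, the host transcript of miR-155, had a level of 10.88 on the array titled mir155KO and 6.63 on the array titled mir155WT (log2 intensity), which goes against the titles. The lower level was below 6.71, the level used here to call a gene expressed. Mir155hg was read by 1 probe set, whose position relative to the deletion is unknown here, so this value alone does not settle the label. Arrays are named by their titles, every difference is the array titled mir155KO minus the array titled mir155WT, and every sign turns over if the source names are right. The mature microRNA that the genotypes concern is shown with its seed (bases 2 to 8) in capitals, from RefSeq on GRCm38.p6.
mmu-miR-155-5p, chr16:84714143-84714165, plus strand: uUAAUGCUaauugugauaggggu

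In animal cells, acetyl-CoA made from citrate in the cytosol is carboxylated to malonyl-CoA, and fatty acid synthase joins these units into palmitate. Elongases of the endoplasmic reticulum add further carbons, and desaturases insert double bonds at fixed positions of the chain. Dividing lymphocytes use these acids for new membranes, and transcription of most of these genes is driven by the sterol regulatory element-binding proteins, encoded by Srebf1 and Srebf2.

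All 10 genes had higher levels on the array titled mir155KO, and by their brightest probe sets the 4 desaturase genes differed the most. With the mean of a gene's expressed sets this order was lost for 2 of them, since Fads1 (0.36) and Fads2 (0.38) then lay below Fasn (0.41). By the brightest sets Scd1 lay only 0.09 above Fasn, and with 1 array per genotype their order is not resolved. The desaturase differences ran from 0.50 to 0.80 on the log2 scale (median 0.72), those of the 3 synthesis genes from 0.22 to 0.41 (median 0.36) and those of the 3 elongase genes from 0.14 to 0.34 (median 0.20). Each gene was represented by its brightest probe set on average, and was called expressed if the mean of both arrays reached 6.71, the median of the non-control probe sets. All 10 members passed this level. Over the 10717 genes that passed, 56.9% were higher on the array titled mir155KO, and the median difference was 0.03, against 0.39 for the members. A difference of 0.5 or more upward was found for 3 members and for 0.681% of expressed genes. Nothing is read from these shares, because the members were chosen with their differences known. The central 95% of expressed genes lay between -0.39 and 0.37. Scd1, Scd2, Fads1, Fads2 and Fasn were above that range, and the other members were inside it. No member reached 2-fold in either direction, as 0.159% of expressed genes did.

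**Figure D1:**
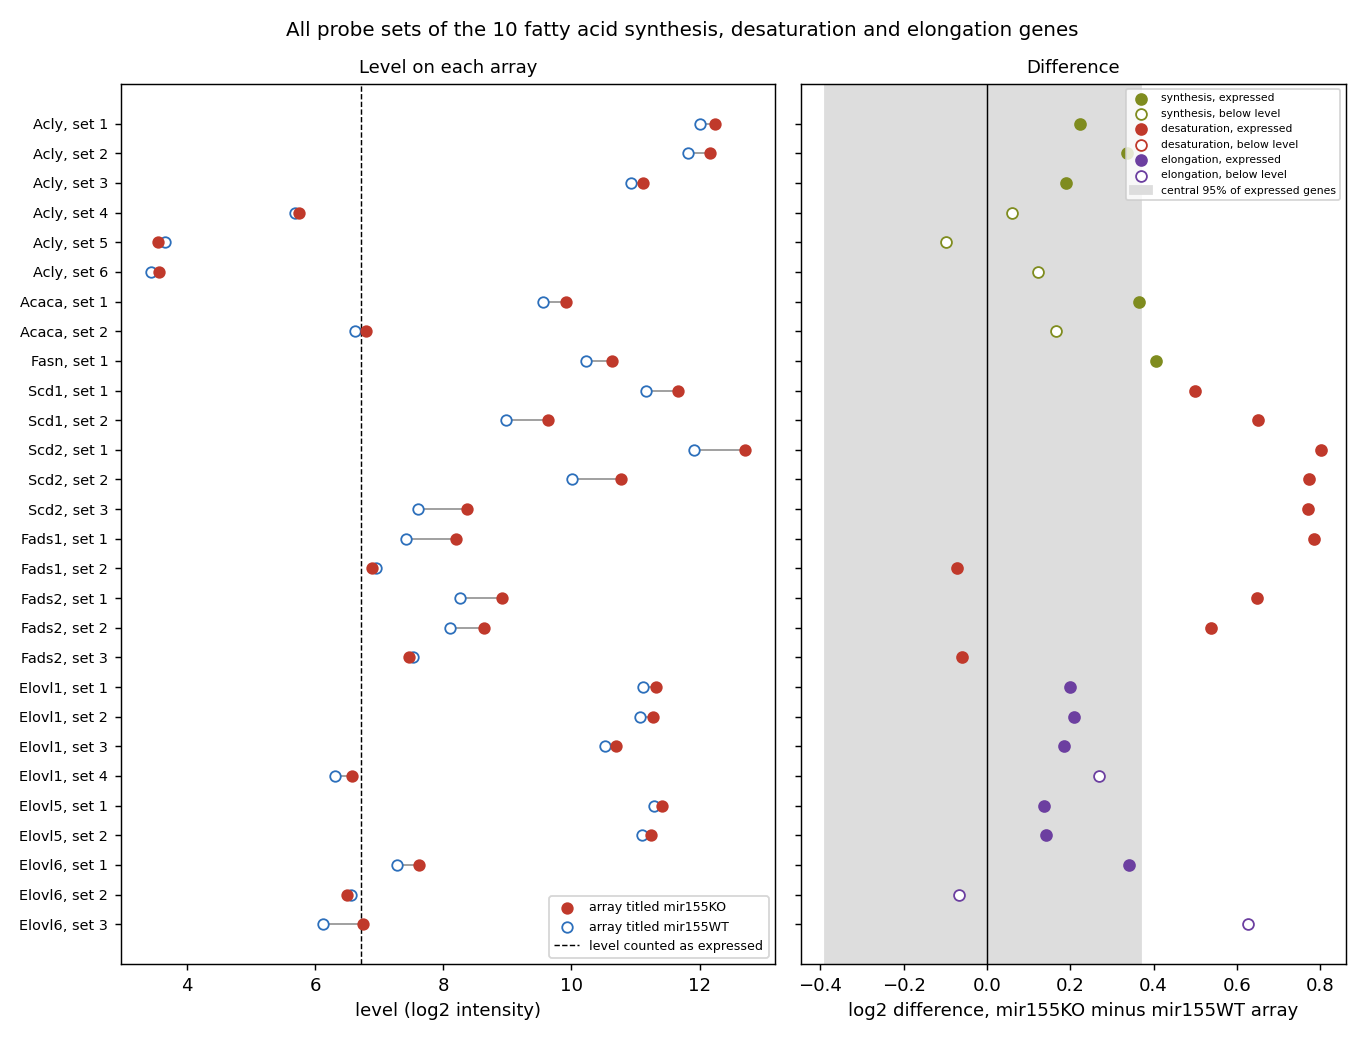
Levels on each array (left, log2 intensity) and the difference between the arrays (right, log2) for all 28 probe sets of the 10 genes, numbered within a gene from the highest mean level down; filled points at right are probe sets at or above 6.71, the dashed line at left. The Scd1 and Scd2 sets and the brighter Fads1 and Fads2 sets lie to the right of the grey band, which holds the central 95% of expressed genes (-0.39 to 0.37), and the dimmest set of Fads1 and that of Fads2 lie near 0.

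Scd1 and Scd2 encode stearoyl-CoA desaturases, which turn saturated acyl chains into monounsaturated ones. Scd2 was measured by 3 probe sets that span a wide range of brightness. The brightest had a level of 12.71 on the array titled mir155KO and 11.91 on the array titled mir155WT. The second read 10.78 on the array titled mir155KO and 10.01 on the array titled mir155WT. The dimmest read 8.37 on the array titled mir155KO and 7.60 on the array titled mir155WT. The differences of the 3 sets, 0.80, 0.77 and 0.77, thus lay within 0.03 of each other, and the brightest corresponds to a 1.74-fold higher intensity. Scd2 was the only one of 2118 genes with 3 or more expressed probe sets in which every set was higher by 0.5 or more. It was also the only gene with such a difference among the 1029 expressed genes whose mean level was 12 or above. Only 8 of all expressed genes had a higher difference than Scd2. Nothing is read from these ranks, because Scd2 was chosen with its difference known.

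Scd1 was read by 2 probe sets. The brighter had a level of 11.66 on the array titled mir155KO and 11.17 on the array titled mir155WT, a difference of 0.50 (1.41-fold) that falls just short of 0.5 before rounding. The dimmer had a level of 9.63 on the array titled mir155KO and 8.98 on the array titled mir155WT, a difference of 0.65. The choice of probe set therefore moved Scd1 by 0.15, and its highest set differed by 0.30 less than that of Scd2. For scale, across 4906 genes the brightest and the next expressed probe set typically disagreed by 0.08 (median), and the 95th percentile of this disagreement was 0.31. Both sets of a gene were read on the same 2 arrays, so this scale holds no variation between animals or cultures. The Scd genes are close paralogs. The probe sets of Scd1 and Scd2 carry the plain _at suffix, and whether their probes also read a paralog was not tested. Scd3, which lies in the same gene cluster, was below the level for expression on both arrays (6.33 on the array titled mir155KO and 6.50 on the array titled mir155WT), and Scd4 was not analysed here.

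Fads1 and Fads2 encode the desaturases that act on polyunsaturated fatty acids from the diet, Fads2 at the entry of the pathway and Fads1 after an elongation step. The brighter probe set of Fads1 had a level of 8.20 on the array titled mir155KO and 7.41 on the array titled mir155WT, a difference of 0.78 (1.72-fold). Its other set, just above the level for expression, read 6.88 on the array titled mir155KO and 6.95 on the array titled mir155WT and so differed by -0.07. Fads1 thus has a high value from 1 set and a value near 0 from the other. For Fads2 the brightest set read 8.91 on the array titled mir155KO and 8.26 on the array titled mir155WT, a difference of 0.65 (1.57-fold). A second set read 8.64 on the array titled mir155KO and 8.10 on the array titled mir155WT, a difference of 0.54. The dimmest, whose _x_at suffix marks probes that may read other transcripts, read 7.46 on the array titled mir155KO and 7.52 on the array titled mir155WT, a difference of -0.06. Among expressed member sets, the suffix also marks the brightest and next sets of Elovl1 and the second sets of Acly and Elovl5. The sets so marked in those genes were higher on the array titled mir155KO. With the mean of a gene's expressed probe sets in place of the highest, Fads1 differed by 0.36 and Fads2 by 0.38. The position of the deviating sets on the transcripts was not determined here.

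By their brightest probe sets, the enzymes that make palmitate differed less than the desaturases, an order that the mean of expressed sets did not keep for Fads1 and Fads2. Acly encodes ATP citrate lyase, which splits citrate into the acetyl-CoA used for lipid synthesis. Its highest set read 12.24 on the array titled mir155KO and 12.01 on the array titled mir155WT, a difference of 0.22 (1.17-fold). The next expressed set differed by 0.34 and the third by 0.19, and 3 further sets were below the level for expression, with differences between -0.10 and 0.12. Acaca encodes the cytosolic acetyl-CoA carboxylase, which makes malonyl-CoA. It read 9.92 on the array titled mir155KO and 9.56 on the array titled mir155WT, a difference of 0.36 (1.29-fold), and a second set under the level for expression differed by 0.17. Fasn, fatty acid synthase, was read by a single probe set at 10.63 on the array titled mir155KO and 10.22 on the array titled mir155WT, a difference of 0.41 (1.33-fold). Fasn and Acaca were 0.04 apart, under the median disagreement between probe sets of the same gene, so their order is not resolved. The gap of 0.18 between Fasn and Acly was above that median but below the 95th percentile of 0.31. With 1 array per genotype that order is not resolved either, and neither is that of Scd1 and Fasn, which were 0.09 apart.

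Among the elongase genes, Elovl1 and Elovl5 were closer to the bulk of genes than Elovl6. Elovl6, whose product lengthens palmitate to stearate and so makes the substrate of the stearoyl-CoA desaturases, read 7.62 on the array titled mir155KO and 7.28 on the array titled mir155WT. Its difference was 0.34 (1.27-fold), and the 2 other sets, both below the level for expression, differed by 0.63 and -0.07. Elovl1 encodes an elongase of very long saturated and monounsaturated chains. Its highest set read 11.31 on the array titled mir155KO and 11.11 on the array titled mir155WT, and its 3 expressed sets differed by 0.18 to 0.21. Elovl5 encodes an elongase of polyunsaturated chains, which works between the Fads2 and Fads1 steps. It read 11.42 on the array titled mir155KO and 11.28 on the array titled mir155WT, and its 2 sets differed by 0.14 each. For Elovl5, 22.4% of expressed genes had a difference as high or higher, against 12.7% for Elovl1 and 3.20% for Elovl6.

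Over all member probe sets, 24 were higher and 4 lower on the array titled mir155KO. The matching share over all probe sets with a single gene was not computed. Of the 21 member sets at or above the level for expression, 19 were higher, against 58.8% of all 19171 such probe sets with a single gene. The 2 lower ones belong to Fads1 and Fads2. Of the 7 members with several expressed sets, Acly, Scd1, Scd2, Elovl1 and Elovl5 had all of them higher, and 40.7% of the 4906 genes with several expressed sets did so. No conclusion is drawn from these counts. The members were chosen with their differences known, and the sets of a gene were read on the same 2 arrays.

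**Figure D2:**
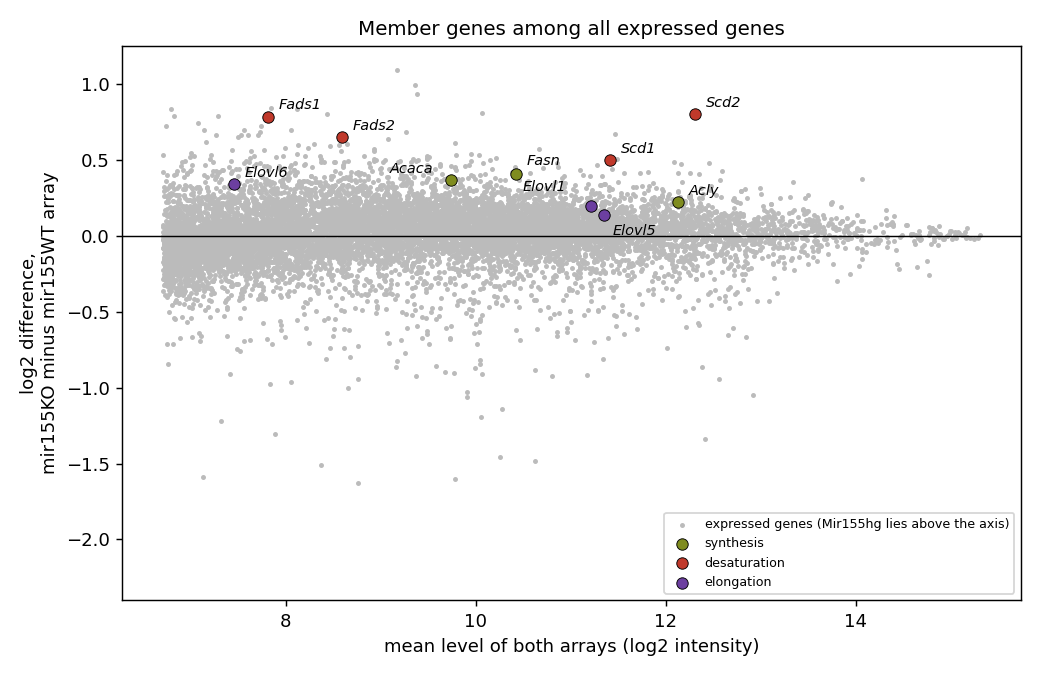
Difference between the arrays (log2, array titled mir155KO minus array titled mir155WT) against the mean level of both arrays (log2 intensity) for the expressed genes, with the 10 members coloured by role. Scd2 stands alone at its level with a difference of 0.80, Fads1 and Fads2 lie at the upper edge of the cloud, and Elovl1, Elovl5 and Acly lie inside it.

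Of the 10 genes, Acly, Acaca and Fasn lie on chromosome 11 and the 4 desaturase genes on chromosome 19, where Fads1 and Fads2 are neighbours and Scd1 and Scd2 lie in another cluster. Elovl1, Elovl5 and Elovl6 lie on chromosomes 4, 9 and 3. The 5 protein-coding genes on either side of each pair were examined after the member values were seen. Around the Scd pair the 4 expressed neighbours, Cwf19l1, Bloc1s2, Ndufb8 and Hif1an, differed by 0.06 to 0.15. Around the Fads pair the 7 expressed neighbours ranged from -0.26 (Fth1, a ferritin subunit) to 0.24 (Incenp, a subunit of the chromosomal passenger complex), with a median of 0.01. Fen1, a replication nuclease gene next to Fads1, differed by 0.01. Every expressed neighbour differed by less than the 4 desaturase genes did by their brightest probe sets (0.50 to 0.80). Nothing is read from this, because the desaturases were chosen with their differences known. Upward differences of 0.5 or more were also rare, at 0.681% of all expressed genes.

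**Figure D3:**
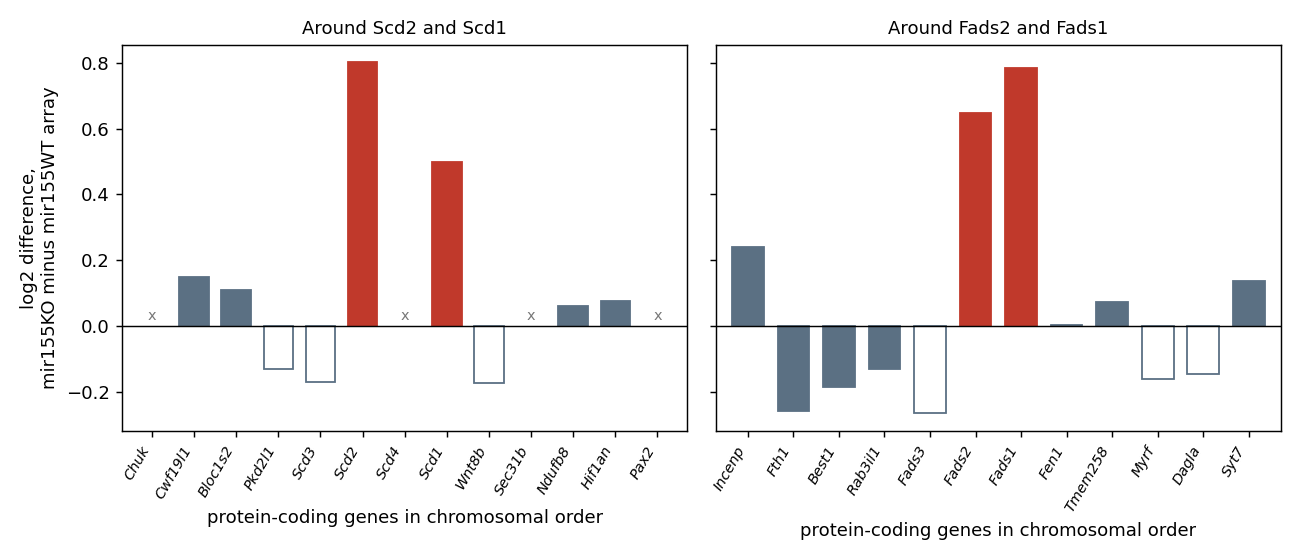
Difference between the arrays (log2) for the genes in chromosomal order around Scd2 and Scd1 (left) and Fads2 and Fads1 (right), with 5 protein-coding genes on either side; open bars are genes below the level for expression and x marks genes not analysed here. The members (red) stand between 0.50 and 0.80, and every expressed neighbour lies between -0.26 and 0.24.

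The promoters of the members were searched on both strands for 4 short motifs. Whether these motifs bear on the differences was not tested. RefSeq windows from 250 bases before to 50 bases after the transcript start (GRCm38.p6) were given for 7 members, 8 windows in all, and not for Scd1, Scd2 and Fads1. A sterol regulatory element-like motif (TCANNCCAC) was in the windows of Acly and Elovl5 and in 4.18% of 32851 promoters. The E-box CACGTG was in the window of Elovl5 and in 7.15% of promoters. CCAAT, the motif of NF-Y, was in windows of Acly, Elovl1, Elovl5 and Fasn and in 37.4% of promoters. The GC box GGGCGG, read by Sp1, was in windows of Acly, Elovl1 and Fads2 and in 35.7% of promoters. A match is only a match of letters, and a window without one says nothing about the factor. The windows of Fasn, Acly and Fads2 are printed because they stand for palmitate synthesis at its end and its start and for the desaturases; capitals mark every motif match on either strand.
Fasn, chr11:120824498-120824797, minus strand: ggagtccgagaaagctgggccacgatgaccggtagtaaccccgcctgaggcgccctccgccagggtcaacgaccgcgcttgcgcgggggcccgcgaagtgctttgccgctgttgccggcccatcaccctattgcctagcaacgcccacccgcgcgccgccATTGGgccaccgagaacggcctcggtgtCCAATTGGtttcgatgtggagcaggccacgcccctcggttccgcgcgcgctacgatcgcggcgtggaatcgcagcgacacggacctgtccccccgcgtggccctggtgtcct
Acly, chr11:100527951-100528250, minus strand: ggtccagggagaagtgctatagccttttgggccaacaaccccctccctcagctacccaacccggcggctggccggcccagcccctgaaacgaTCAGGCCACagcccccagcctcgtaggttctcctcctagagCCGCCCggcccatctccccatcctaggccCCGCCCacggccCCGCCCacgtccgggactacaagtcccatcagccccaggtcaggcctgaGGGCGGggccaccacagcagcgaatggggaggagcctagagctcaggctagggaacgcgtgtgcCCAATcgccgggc
Fads2, chr19:10101454-10101753, minus strand: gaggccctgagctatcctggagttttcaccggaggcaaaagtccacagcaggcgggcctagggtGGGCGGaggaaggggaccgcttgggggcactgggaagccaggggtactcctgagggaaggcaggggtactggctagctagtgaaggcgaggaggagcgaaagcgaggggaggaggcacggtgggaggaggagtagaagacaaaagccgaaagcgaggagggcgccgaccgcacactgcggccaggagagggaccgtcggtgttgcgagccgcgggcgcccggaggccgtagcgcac
In the Fasn window 2 of the CCAAT matches, on opposite strands, overlap in 1 run of capitals.

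The other genes of lipid metabolism were taken from 9 lists and are given by counts and medians. These are to be read against all expressed genes, of which 56.9% were higher on the array titled mir155KO, with a median of 0.03. Of 9 other desaturase and elongase genes measured, only Degs1 was expressed. Degs1 encodes the desaturase that makes ceramide and was lower, at 11.63 on the array titled mir155KO and 11.82 on the array titled mir155WT (-0.19, and -0.18 for its other set). The enzymes that work with the elongases and desaturases had 4 of 7 expressed genes higher and a median of 0.01. The highest were Cyb5b (0.26), a cytochrome b5 that can pass on electrons, and Cyb5r3 (0.20), a cytochrome b5 reductase. The lowest were Hacd3 (-0.15) and Hacd2 (-0.07), dehydratases of the elongation cycle. For Cyb5r3 the direction was not the same in all 4 expressed sets (-0.16 to 0.20).

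Genes that supply substrate and reducing power had 5 of 7 members higher, with a median of 0.08. Idh1, a cytosolic source of NADPH, was highest (0.36), followed by Slc25a1 (0.15), the carrier that exports citrate from mitochondria. Thrsp (-0.33), which encodes a lipogenic nuclear protein, and Mlycd (-0.29), which degrades malonyl-CoA, were lowest, and a second set of Thrsp stood at -0.01.

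The differences of the expressed regulators ran from -0.25 to 0.32, and the highest overlap those of the members. Srebf1 read 10.28 on the array titled mir155KO and 10.13 on the array titled mir155WT, a difference of 0.15. Srebf2 read 11.61 on the array titled mir155KO and 11.49 on the array titled mir155WT, a difference of 0.11. Over the list, 9 of 12 expressed genes were higher, with a median of 0.10. Prkaa1 (0.32), a catalytic subunit of the energy sensor AMPK, and Scap (0.27), the sterol sensor that escorts the binding proteins, were highest. Nr1h3 (-0.25), the oxysterol receptor LXR alpha, and Prkab1 (-0.08), another AMPK subunit, were lowest, and the second set of Prkab1 was higher by 0.10.

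The cholesterol pathway, which shares these regulators, had 17 of 17 expressed genes higher and a median of 0.29, less than the 0.72 of the desaturases and close to the 0.36 of palmitate synthesis. Dhcr7 (0.64), a late reductase, and the lanosterol synthase gene Lss (0.51) were highest, and Pmvk (0.05) and Ebp (0.13) lowest. These differences overlap those of the members, and no test of a difference between the lists was made.

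Genes of fatty acid uptake and activation were split, with 5 higher and 5 lower of 10 expressed and a median of 0.11. Acsl3 (0.38), an acyl-CoA synthetase, and Fabp5 (0.35), a fatty acid-binding protein, were highest. Cd36, a scavenger receptor that imports fatty acids, was lower by more than 0.5. It read 8.16 on the array titled mir155KO and 8.82 on the array titled mir155WT, a difference of -0.66, with -0.62 for its other expressed set. A difference of 0.5 or more downward was found for 1.31% of expressed genes. Acbd3 (-0.13), which encodes a Golgi protein with an acyl-CoA binding domain, was next, and its 4 sets ranged from -0.25 to 0.06.

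The list medians for lipid assembly, fatty acid oxidation and mitochondrial fatty acid synthesis lay near the median of all expressed genes. In glycerolipid and phospholipid assembly 11 of 16 were higher, with a median of 0.03 and a range from -0.19 (Cept1, a choline and ethanolamine phosphotransferase) and -0.17 (Plin2, a lipid droplet coat protein) to 0.14 (Dgat1, an acyltransferase) and 0.19 (Pcyt2, an enzyme of phosphatidylethanolamine synthesis). The second set of Dgat1 stood at -0.30. In fatty acid oxidation 12 of 15 were higher, with a median of 0.06, between Hadhb (-0.04) and Acadvl (-0.02) at the low end and Slc25a20 (0.20), the acylcarnitine carrier, and Hadh (0.19) at the high end. Mitochondrial fatty acid synthesis and lipoylation had 5 of 7 higher and a median of 0.06, with Lipt2 (0.34) and Mecr (0.21) highest and Lipt1 (-0.06) and Lias (-0.05) lowest. The 3 expressed sets of Lias ranged from -0.05 to 0.48, and those of Hadhb from -0.19 to 0.07.

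**Figure D4:**
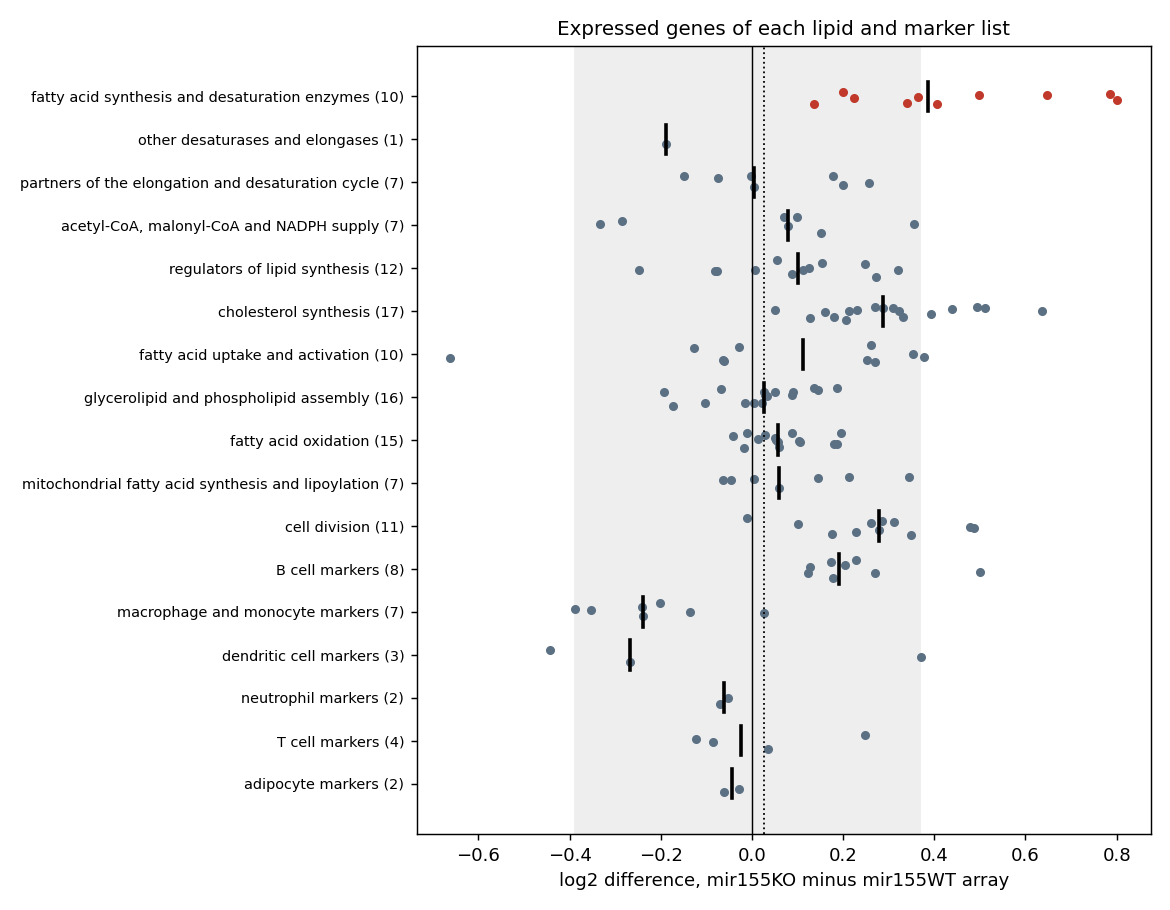
Differences between the arrays (log2, array titled mir155KO minus array titled mir155WT) for the expressed genes of each list, 1 point a gene, with the number of genes in brackets, the list median as a bar, the median of all expressed genes as a dotted line and their central 95% in grey. The members (red, median 0.39) and cholesterol synthesis (median 0.29) lie to the right, fatty acid oxidation (0.06) and glycerolipid assembly (0.03) lie near 0, and Cd36 is the point at -0.66.

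Cell division genes and B cell markers were higher together with the members, macrophage and dendritic cell markers were mostly lower, and their part in these differences was not tested. Over all expressed genes 56.9% were higher on the array titled mir155KO and the median was 0.03. Of 11 expressed cell division genes 10 were higher on that array, with a median of 0.28. Aurkb (0.49) and Mki67 (0.48) were highest, and Mcm2 (-0.01) and Pcna (0.10) lowest. B cell markers were expressed for 8 of 9 measured, and all 8 were higher (median 0.19). The summed linear intensity of all 9 measured was 34657 on the array titled mir155KO and 29910 on the array titled mir155WT. The brightest genes weigh most in such a sum. Macrophage and monocyte markers were expressed for 7 of 11 measured, 6 of them lower (median -0.24). The sums over all 11 measured were 1415 on the array titled mir155KO and 1695 on the array titled mir155WT. Dendritic cell markers were expressed for 3 of 7 measured, 2 of them lower (median -0.27). Neutrophil markers were expressed for 2 of 9 and T cell markers for 4 of 6, with medians of -0.06 and -0.02. Adipocyte markers were expressed for 2 of 6 (median -0.04), and Adipoq, Cidec, Lep and Pck1 were below the level for expression on both arrays. In bulk RNA, fewer cells of a type and less RNA per cell cannot be told apart.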

How the data were processed

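The authors deposited log2 intensities for 45101 probe sets on 2 arrays (range 3.09 to 15.4). Biotin-labelled cRNA was made with the 3′ IVT Express kit, per the labels' protocols. The log2 unit was read from the values; for the scanner, summarisation and normalization nothing is stated in the labels. Both arrays had nearly the same distribution as deposited (sorted values within 0.063), so unequal total RNA per cell would not show. Groups follow titles and genotype entries.

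The platform annotation named 1 gene for 34945 probe sets, several for 932 and none for 9160, and 64 were controls. All 10 members matched GRCm38.p6 RefSeq by Entrez number. Differences were computed without a test, since 1 array per genotype gives no residual degrees of freedom; precision is limited by the number of arrays. The members and lists were chosen with earlier results of these data known. Named genes were all members, Srebf1, Srebf2 and Mir155hg, the 2 highest and 2 lowest expressed genes of each lipid list, and any listed expressed gene differing by 0.5 or more. Scd3, the adipocyte markers and the chromosomal neighbours were named after their values were seen. Gene summaries were tested on simulated data. Alternatives were the mean of probe sets, plain _at sets, quantile normalization, loess subtraction (span 0.3), median centring, no level filter, and a filter at the 75th percentile. Loess curves came from statsmodels 0.14.6 and figures from matplotlib 3.10.9; the rest used NumPy 2.4.6 and pandas 2.3.3 under Python 3.11.15.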

Additional observations from a re-analysis of the deposited data

How the results depend on the processing

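Under 7 alternatives no member changed sign in 66 recomputed values. Elovl1 has no plain _at set and so had no value under that alternative. With the mean of a gene's expressed probe sets, Fads1 moved to 0.36, Fads2 to 0.38 and the desaturase median to 0.48. With the filter at the 75th percentile Fads1, Fads2 and Elovl6 were no longer counted, so 1 member was higher by 0.5 or more and the uptake and activation median was 0.27. Without a filter that median was -0.045. These follow from which probe sets or genes enter. Other differences and medians moved by less than 0.08, the median disagreement between probe sets of a gene, although the median of the elongation partners turned negative under 5 alternatives (lowest -0.07) and that of glycerolipid assembly under quantile normalization and loess (-0.02 each). Scd2 stayed between 0.77 and 0.80. No paired analysis was possible because each genotype has 1 array, and for the same reason no array could be left out.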
